A study of Mus musculus with 8 samples.

Results

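The genes described here encode 7 abundant products of neutrophils: S100a8, S100a9, Ngp, Cd177, Ltf, Lcn2 and Mmp8. All 7 were found by symbol among the 15035 genes of the table. They were chosen by their normalized counts in these same 8 libraries, with the difference between the groups in view, so that difference is given as a description and is not tested. The study sequenced bulk poly(A) RNA from auditory nerves dissected at postnatal day 21, which hold spiral ganglion neurons, their axons and glia. Each library held the pooled nerves of both cochleas of 1 mouse, and 4 mice were wild type (libraries 1 to 4) and 4 were labelled heterozygous for Mef2c (libraries 5 to 8). The labels name no promoter, Cre driver, further allele or treatment for either group, and they give no sex, litter or batch.

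Neutrophils are short-lived white cells that mature in bone marrow and store antimicrobial proteins in granules as they do so. Primary granules are filled first, with proteases and myeloperoxidase, and specific and gelatinase granules are filled later, with lactoferrin, lipocalin 2 and metalloproteinases. S100a8 and S100a9 encode the calcium-binding subunits of calprotectin, which lies in the cytosol rather than in granules. Ngp encodes a cathelin-related granule protein, Cd177 a surface and granule membrane glycoprotein, and Mmp8 the neutrophil collagenase. Ltf (lactoferrin, which binds iron) and Lcn2 (lipocalin 2, which binds bacterial siderophores) are also made by secretory epithelia. The cochlea lies in bone that holds marrow, and the nerve is reached by opening it.

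In the GENCODE M21 annotation of mm10 (GRCm38), S100a8 (chr3:90668978-90670035, plus strand, 3 exons) and S100a9 (chr3:90692632-90695721, minus strand, 3 exons) are neighbours with 22596 bases between them. Ngp (chr9:110419747-110423012, plus strand, 4 exons) and Ltf (chr9:111019271-111042767, plus strand, 17 exons) are 596258 bases apart. Mmp8 (chr9:7558456-7568485, plus strand, 10 exons) is on the same chromosome. Cd177 (chr7:24743983-24760311, minus strand, 17 exons) and Lcn2 (chr2:32384633-32388252, minus strand, 6 exons) are elsewhere. Sequence before the transcription start is shown for the 4 genes with the most alike library profiles and for Ltf, whose profile differed. It comes from the RefSeq promoter table for GRCm38.p6, and covers up to 250 bases before the RefSeq start, stopped where a GENCODE transcript begins. The stretches are chr3:90668821-90668977 (S100a8, plus strand), chr3:90695722-90695971 (S100a9, minus strand), chr9:110419558-110419746 (Ngp, plus strand), chr7:24760312-24760561 (Cd177, minus strand) and chr9:111019042-111019270 (Ltf, plus strand). They are written 5′ to 3′ on the strand of the gene, with capitals marking matches to the C/EBP letters TTGCNNAA or the PU.1 letters GAGGAA on either strand.
S100a8: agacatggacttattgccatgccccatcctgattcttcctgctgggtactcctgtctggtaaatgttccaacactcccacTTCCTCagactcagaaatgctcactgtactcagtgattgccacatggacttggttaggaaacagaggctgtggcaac
S100a9: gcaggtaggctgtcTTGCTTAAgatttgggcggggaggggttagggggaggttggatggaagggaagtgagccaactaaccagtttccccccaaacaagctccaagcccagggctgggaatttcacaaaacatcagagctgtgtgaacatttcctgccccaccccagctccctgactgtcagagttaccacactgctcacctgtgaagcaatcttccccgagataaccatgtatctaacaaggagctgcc
Ngp: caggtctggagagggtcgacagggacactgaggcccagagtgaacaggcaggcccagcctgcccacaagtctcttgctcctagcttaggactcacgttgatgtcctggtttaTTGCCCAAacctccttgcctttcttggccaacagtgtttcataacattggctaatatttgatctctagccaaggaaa
Cd177: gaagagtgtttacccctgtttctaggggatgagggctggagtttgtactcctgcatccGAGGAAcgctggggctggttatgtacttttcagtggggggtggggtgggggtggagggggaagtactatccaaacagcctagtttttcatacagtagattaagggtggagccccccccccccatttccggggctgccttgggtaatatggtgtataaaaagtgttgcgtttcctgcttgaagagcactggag
Ltf: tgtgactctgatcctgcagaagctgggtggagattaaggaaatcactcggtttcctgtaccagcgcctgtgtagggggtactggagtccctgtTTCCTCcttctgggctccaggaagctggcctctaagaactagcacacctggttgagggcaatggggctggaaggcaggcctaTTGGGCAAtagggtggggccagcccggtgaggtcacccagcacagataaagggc

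C/EBP factors and PU.1 are the main transcription factor families of granulocyte development. In the full 250 bases before each RefSeq start, the C/EBP letters were present in 5 of the 7 genes (all but S100a8 and Cd177), against 9.56% of 32851 promoters in the table. The PU.1 letters were present in 5 of the 7 (all but S100a9 and Ngp), against 23.3%. Letters for NF-kB (GGGA and CC with any 4 bases between) and for MEF2 (CTA and TAG with any 4 bases between) were in 0 of the 7 windows, against 17.6% and 3.2% of promoters. All searches covered both strands. The window of Lcn2 (chr2:32387740-32387989, minus strand) lies inside that gene as GENCODE annotates it, up to base 32388252. Its C/EBP and PU.1 matches are therefore before the RefSeq start only. The window of Mmp8 ends at base 7558428, before the GENCODE start at 7558456. A match describes the sequence only, and 0 matches say only that these letters are not in these windows. No C/EBP match overlapped a PU.1 match in these windows, and 1 further match each in S100a8 and Ngp lies in the bases next to the start that are not printed.

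Before the genes were compared, the libraries were checked. Estimated depth lay between 13363468 and 21507072 reads per library. In normalized counts, the deposited unit (gene counts divided by a size factor per library), 3 reads correspond to 2.37 to 3.89. Mef2c was higher, not lower, in the libraries labelled heterozygote, at 583.3 to 735.1 normalized counts against 402.2 to 508.7, which goes against that label. The labels do not give the deleted part of the gene, so whole-gene counts may not check it, and directions below are between libraries as labelled. Wild-type library 1 stood apart, with a median correlation of 0.939 across genes with the other libraries, against 0.955 to 0.973 for the others. It and heterozygote-labelled library 5 were low in Xist (12 and 7.6 normalized counts, against 5175.3 to 8615.3). The nerve's own markers were high in all 8, with Nefl, a neurofilament gene, at 33661.5 to 42068.7 normalized counts and the Schwann cell list summing to 190336 to 269248.

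Calprotectin, Ngp and Cd177 were low in all 4 wild-type libraries and much higher, by very different amounts, in the 4 libraries labelled heterozygote. S100a9 had 48.0, 44.9, 54.1 and 29.0 normalized counts in wild-type libraries 1 to 4, and 328.0, 111.5, 1688.7 and 1349.2 in heterozygote-labelled libraries 5 to 8. S100a8 had 53.2, 9.5, 30.2 and 12.1 in wild type and 231.4, 88, 1145.0 and 827.0 in libraries 5 to 8. For both subunits the groups did not overlap, library 7 was the highest and library 6 the lowest of the heterozygote-labelled libraries. The ratio of group means was 19.8 for S100a9 (44.0 ± 10.7 against 869.4 ± 768; SD, n = 4 each) and 21.8 for S100a8 (26.3 ± 20.2 against 572.9 ± 498; SD, n = 4 each). The spread within the libraries labelled heterozygote was wide, 15.1-fold from lowest to highest for S100a9 and 13-fold for S100a8.

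Ngp had 68.8, 22.9, 43.1 and 36.2 normalized counts in wild-type libraries 1 to 4, and 319.3, 114.1, 1733.0 and 1331.4 in libraries 5 to 8. It repeated the order of the calprotectin genes in the heterozygote-labelled libraries, 7 above 8, 5 and then 6. Its group means were 42.8 ± 19.3 and 874.5 ± 782 (SD, n = 4 each), a ratio of 20.5. Cd177 had 5.2, 5.5, 9.2 and 8.5 normalized counts in wild type and 30.4, 23.5, 192.2 and 105.9 in libraries 5 to 8. The wild-type values of Cd177 rest on an estimated 4 to 10 reads each. Its ratio of means was 12.4 (7.10 ± 2.04 against 88 ± 78.9; SD, n = 4 each), and the groups again did not overlap. In bulk RNA, more cells of a type and more RNA per cell cannot be told apart.

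**Figure D1:**
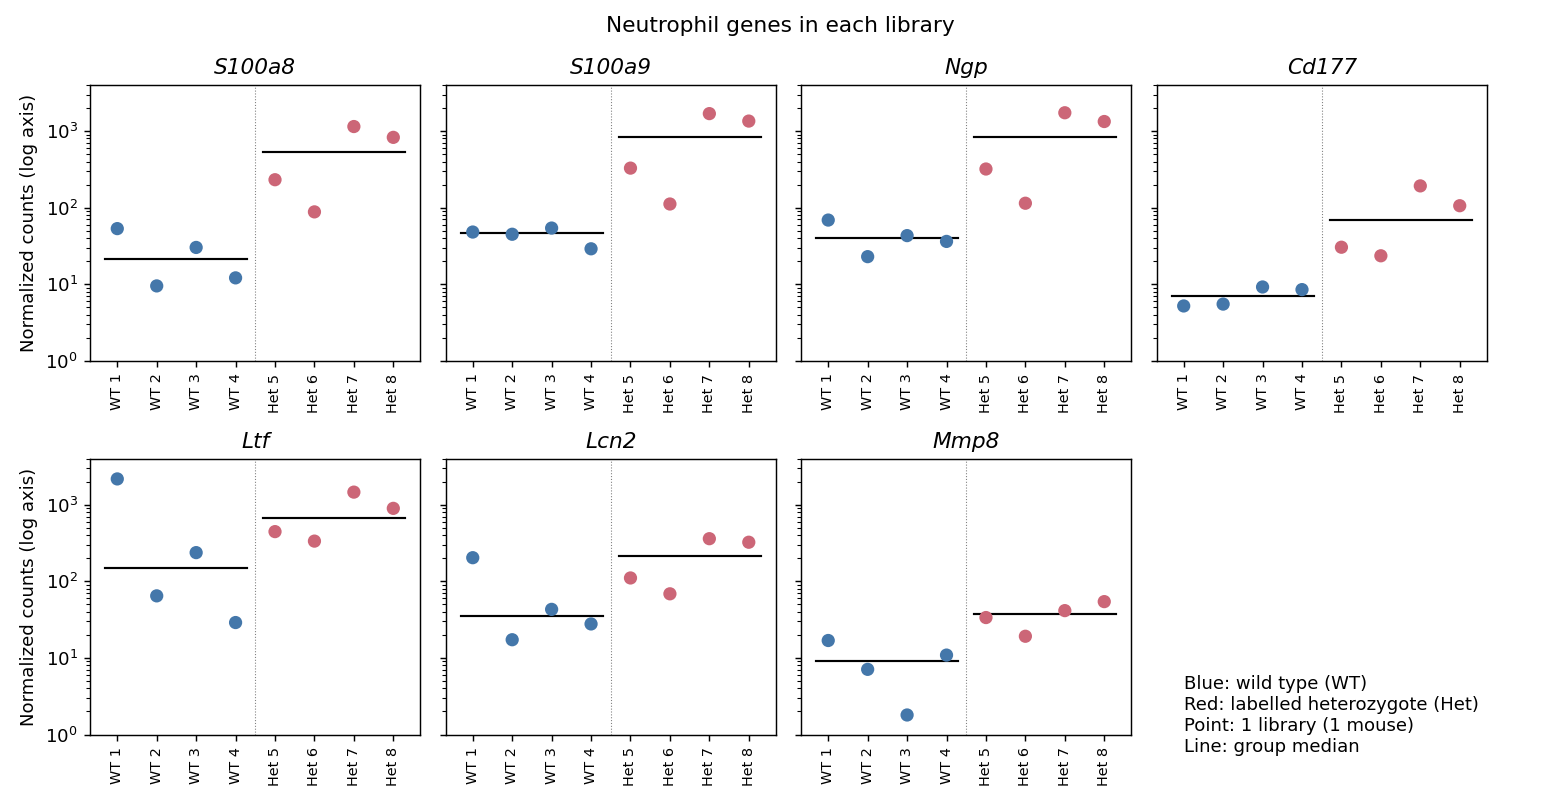
Normalized counts (log axis) of the 7 genes in each library, in blue for wild type and red for the libraries labelled heterozygote, with a line at each group's median. In S100a8, S100a9, Ngp, Cd177 and Mmp8 every red point lies above every blue point, while wild-type library 1 is the highest of all for Ltf (2176.4).

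Mmp8, the collagenase, differed less and was low in every library. It had 16.9, 7.1, 1.8 and 10.9 normalized counts in wild type and 33.7, 19.2, 41.5 and 54.4 in libraries 5 to 8. The value of wild-type library 3 corresponds to an estimated 2 reads, under the 3 reads taken as the limit of detection. The groups did not overlap, but the lowest heterozygote-labelled value was only 1.14 times the highest wild-type value. Library 8, not library 7, was the highest. The ratio of means was 4.05 (9.18 ± 6.36 against 37.2 ± 14.7; SD, n = 4 each).

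In Ltf and Lcn2, the iron-handling pair, the groups overlapped, and wild-type library 1 was high. Ltf had 2176.4, 64.7, 237.4 and 29.0 normalized counts in wild-type libraries 1 to 4, and 446.4, 335.5, 1463.5 and 898.2 in libraries 5 to 8. The highest of all 8 values was thus in wild-type library 1, 9.17 times the next wild-type value. Lcn2 had 203.8, 17.3, 43.1 and 27.8 in wild type and 110.8, 68.8, 360.9 and 324.4 in libraries 5 to 8. Here wild-type library 1 lay above libraries 5 and 6 and below 7 and 8. The means of Ltf were 626.9 ± 1037 and 785.9 ± 513 (SD, n = 4 each), a ratio of 1.25, and those of Lcn2 73.0 ± 87.8 and 216.2 ± 148, a ratio of 2.96. Without wild-type library 1 the ratios of means were 7.12 for Ltf and 7.35 for Lcn2, and all 4 heterozygote-labelled libraries then lay above the other 3 wild-type libraries in both genes. Both ratios stayed below those of S100a8 (33.2), Ngp (25.7), S100a9 (20.4) and Cd177 (11.4) without that library, and above that of Mmp8 (5.64).

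The size of the difference in these 2 genes therefore depended on how libraries were averaged. On the log2(value + 1) scale, where 1 library weighs less, the log2 fold change was 1.90 for both Ltf (standard error 1.03) and Lcn2 (standard error 0.71). The ratio for Ltf in the authors' deposited table was 1.25. For S100a8, S100a9, Ngp, Cd177 and Mmp8 the log2 fold changes were 4.09, 3.62, 3.73, 3.0 and 2.10, with standard errors of 0.75, 0.69, 0.71, 0.65 and 0.63. The first 3 of these were the highest log2 fold changes of all 14870 genes that passed the filter on low values. All 7 genes passed that filter (10 or more normalized counts in 4 or more libraries), S100a8, Cd177 and Mmp8 only through the libraries labelled heterozygote, since 3, 0 and 2 wild-type libraries reached 10. The groups did not overlap, with the heterozygote-labelled libraries higher, in 5 of the 7, against 3.4% of all genes tested (3.86% were lower without overlap). The median log2 fold change was 3.0 for the 7 genes and 0.02 for all genes tested. These figures describe how the genes were chosen and are not evidence beyond that choice.

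Between genes, levels were compared only per kilobase of transcript. In wild type, Ltf had the highest mean, at 228.5 normalized counts per kilobase, ahead of S100a9 at 84.8 and Lcn2 at 79.8. By the median, S100a9 came first at 89.5, with Ltf at 55.1, and wild-type library 1 held the highest Ltf level, at 793.4 per kilobase. In the libraries labelled heterozygote the medians per kilobase were 1616 for S100a9, 1089 for S100a8 and 675.4 for Ngp, then 245.1 for Ltf and 237.8 for Lcn2. Cd177 and Mmp8 were lowest, with medians of 25.1 and 15.5 per kilobase. Neighbours in that order overlapped across the 4 libraries, except that Lcn2 (75.2 to 394.4) lay above Cd177 (8.66 to 70.8). Together the 7 genes made up 0.000895% to 0.0148% of the normalized counts in libraries 1 to 4 and 0.00445% to 0.0396% in libraries 5 to 8.

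Ratios between genes within a library separated the 7 genes further. These are ratios of normalized counts not divided by length, so they compare libraries, not genes. Across heterozygote-labelled libraries 5 to 8, S100a8 over S100a9 ran from 0.613 to 0.789 and Ngp over S100a9 from 0.973 to 1.03, while S100a9 itself spanned 15.1-fold. In wild type the same ratios ran from 0.212 to 1.11 and from 0.510 to 1.43. Each of these genes had an estimated 10 to 59 reads per wild-type library, and the part of counting error was not tested. Ltf over Ngp lacked the steadiness of those ratios in libraries 5 to 8. It was 31.6 in wild-type library 1, 2.83, 5.51 and 0.801 in wild-type libraries 2 to 4, and 1.40, 2.94, 0.844 and 0.675 in libraries 5 to 8. Lcn2 over Ngp was likewise highest in wild-type library 1, at 2.96, against 0.208 to 1.0 in the other 7 libraries.

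Bpifa1, which encodes a protein secreted by airway and middle ear epithelium, was examined beside Ltf as a member of the secretory epithelium markers. It had 15361.7, 427.4, 1441.9 and 293.5 normalized counts in wild-type libraries 1 to 4, and 2917.6, 3248.2, 3178.7 and 45.9 in libraries 5 to 8. Bpifa1 was thus highest in the same wild-type library as Ltf and lowest in heterozygote-labelled library 8, where Ltf was high. Bpifa1 over Ltf lay between 6.07 and 10.1 in the 4 wild-type libraries and in heterozygote-labelled libraries 5 and 6. It was 2.17 in library 7 and 0.0511 in library 8, the libraries with the most S100a9. The choice to form this ratio was made after the values were seen. Of the other 6 measured markers of that list (15 genes, 8 not analysed here), Krt19 (490.6, against 170.5 to 395.1 in the others) and Wfdc2 (695.6, against 316.0 to 574.9) were also highest in wild-type library 1. Epcam and Krt8 were highest in wild-type library 4, and Krt18 and Cdh1 in library 6. The whole list summed to 6831 to 22457 normalized counts in wild type and 6049 to 10807 in libraries 5 to 8. Without Bpifa1 it summed to 7095 in wild-type library 1, below 7134, 7419 and 7558 in libraries 2, 4 and 6, so the high sum of library 1 was that of Bpifa1. The part of secretory epithelium in the Ltf and Lcn2 values was not tested.

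**Figure D2:**
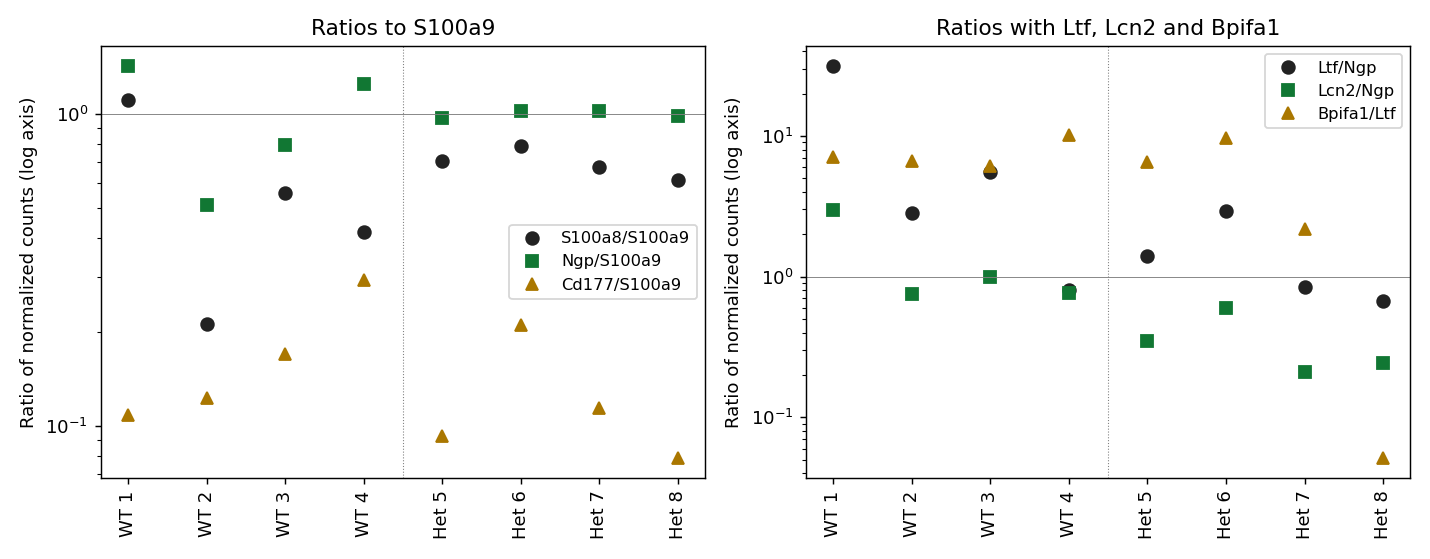
Ratios of normalized counts between genes in each library (log axes), with S100a8, Ngp and Cd177 over S100a9 on the left and Ltf and Lcn2 over Ngp and Bpifa1 over Ltf on the right. Ngp over S100a9 stays close to 1 in libraries 5 to 8, Ltf over Ngp reaches 31.6 in wild-type library 1, and Bpifa1 over Ltf drops to 0.0511 in library 8.

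Further genes, in 9 lists drawn up with earlier results known, were then read from a limma-trend fit over all 14870 genes. Of these lists, 4 hold neutrophil genes (27 tested), some of which other cells also express, Lyz2, Cyba and Gfi1 among them. The other 5 hold genes that other cells of the nerve also express: attractants, receptors and inhibitors, and the S100 and metalloproteinase families (40 tested). Of all 114 genes, 68 were measured and 67 tested. The adjusted limma-trend p (Benjamini-Hochberg, over all genes) was under 0.05 for 0 of the 67, and for 12 of all genes (0.0807%). At an unadjusted p under 0.05 there were 12 of the 67 (17.9%), 9 higher in libraries 5 to 8 and 3 lower, against 14.1% of all genes (6.72% higher, 7.34% lower). Of these 12, 7 were in the 4 lists of neutrophil genes (6 higher, 1 lower) and 5 in the other lists (3 higher, 2 lower). With limma-voom on estimated reads, an alternative, 0 and 12 of the 67 passed the adjusted and unadjusted thresholds. The FDR in the authors' deposited table was under 0.05 for 5 of the 68 (Chil3, Gfi1, Ncf1, Lrp1 and S100a13), against 1.61% of genes. The median log2 fold change of the 67 was 0.05. Without wild-type library 3, 3 genes passed with limma-trend: Gfi1 (adjusted p 0.0365, range over its alternatives 0.0365 to 0.587), S100a13 (0.0155, range 0.0155 to 0.618) and S100a1 (0.0463, range 0.0463 to 0.690).

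Of the other granule and cytosol genes, 8 of 25 were measured, and the primary granule genes Mpo, Elane, Prtn3 and Ctsg were not analysed here. Chil3, for a chitinase-like protein of neutrophils and some macrophages, had 16.9, 14.2, 4.6 and 24.2 normalized counts in wild type and 60.8, 20.9, 663.4 and 499.7 in libraries 5 to 8. It thus shared the high values of libraries 7 and 8, while library 6 lay within the wild-type range. The log2 fold change of Chil3 was 3.38 (standard error 0.95), with an unadjusted p of 0.00401 and an adjusted limma-trend p of 0.233, so it did not pass. Mmp9 (gelatinase B) had a log2 fold change of 1.29 and Olfm4, an olfactomedin of specific granules, of 1.94, with adjusted limma-trend p of 0.330 and 0.326. Mmp9 was at 170.0 in wild-type library 1, against 26.6 to 31.5 in the other 3 wild-type libraries and 68.4 to 173.4 in the libraries labelled heterozygote. Serpinb1a, an inhibitor of neutrophil serine proteases, lay the other way. It was at 306.1 ± 85.7 in wild type and 172.2 ± 54.4 in libraries 5 to 8 (SD, n = 4 each), with no overlap. Its log2 fold change was -0.85, with an adjusted limma-trend p of 0.266. Lyz2 (lysozyme, also made by macrophages) had a log2 fold change of 0.17 (adjusted limma-trend p 0.774) and for Anxa1 (annexin 1) that p was 0.997.

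Among receptors and surface proteins, 7 of 20 were tested and 0 had an unadjusted limma-trend p under 0.05. Cxcr4, which retains neutrophils in marrow, had a log2 fold change of 0.42 and Itgam, the integrin chain CD11b, of 0.14. Itgb2, its partner chain, had 0.36 and Selplg, a selectin ligand, -0.06. The adjusted limma-trend p of these 4 ran from 0.437 to 0.948. Itgam and Itgb2 were highest in library 7, at 242.2 and 214.9 normalized counts. Ly6g, Cxcr2 and the formyl peptide receptors were not analysed here.

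Of the 5 subunits of the NADPH oxidase, which makes the superoxide of the respiratory burst, 2 had an unadjusted limma-trend p under 0.05. Both were higher in the libraries labelled heterozygote, and 14.1% of all genes had such a p (6.72% higher). Ncf1 (p47phox) had 124.6, 162.4, 118.2 and 93.0 normalized counts in wild type and 204.2, 163.8, 354.3 and 318.8 in libraries 5 to 8. Those groups did not overlap, though library 6 lay just above wild-type library 2. The log2 fold change of Ncf1 was 1.02 with an adjusted limma-trend p of 0.222, and that of Cybb (gp91phox) was 0.86 with 0.296. Cyba, which other cells also express, had a log2 fold change of -0.21.

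Of the granulocyte transcription factors, 7 of 8 were tested. Only Gfi1 had an unadjusted limma-trend p under 0.05, 14.3% of these against 14.1% of all genes. Gfi1 had 246.6, 96.2, 304.3 and 101.5 normalized counts in wild type and 367.1, 333.7, 512.7 and 632.9 in libraries 5 to 8, with no overlap. For Gfi1 the log2 fold change was 1.43 (standard error 0.36) and the adjusted limma-trend p was 0.214. Gfi1 also serves hair cells. Of the hair cell genes Pou4f3, Otof, Myo7a and Slc26a5, chosen after the values were seen, Otof had an unadjusted p under 0.05 (log2 fold change 0.54, adjusted limma-trend p 0.278) and the others had log2 fold changes from -0.81 to 0.38. The part of hair cells in the Gfi1 values was not tested. Runx1, Cebpb and Cebpa had log2 fold changes of 0.45, -0.25 and -0.13.

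**Figure D3:**
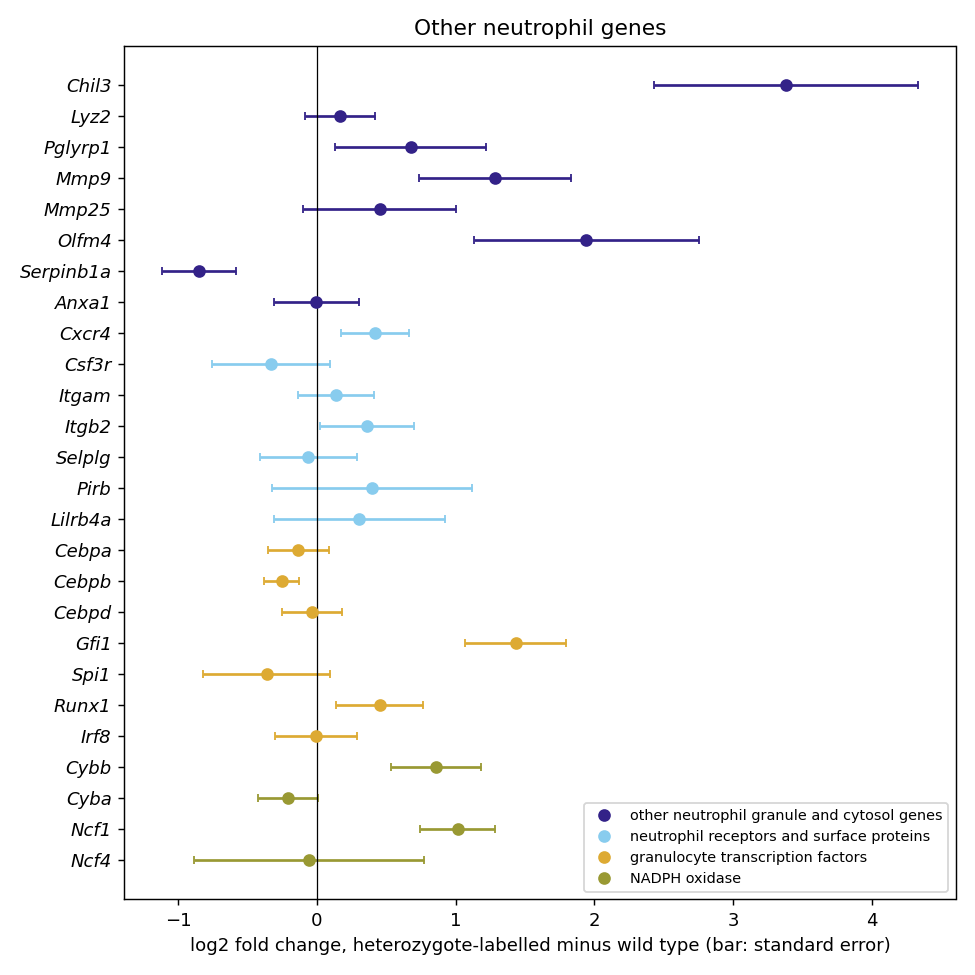
The log2 fold change (heterozygote-labelled minus wild type, bars: standard error) of genes in 4 lists of neutrophil genes outside the 7. Chil3 (3.38), Olfm4 (1.94), Gfi1 (1.43) and Mmp9 (1.29) lie farthest to the right, and 0 of the genes shown had an adjusted limma-trend p under 0.05.

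Among tested genes for signals that draw neutrophils and for receptors and inhibitors of the proteins above, log2 fold changes lay between -0.51 (Ly96) and 0.41 (Lrp1). Of the attractants and growth factors, 4 of 14 were measured. Cxcl12, Csf1 and Icam1 had log2 fold changes of 0.05, -0.11 and 0.29, with adjusted limma-trend p of 0.840, 0.772 and 0.557. Il1b, too low to be tested, had 41.5, 27.6, 4.6 and 7.2 normalized counts in wild type and 5.4, 0.9, 8.5 and 7.5 in libraries 5 to 8, so it was not high where S100a9 was. All 6 calprotectin receptor genes were tested and 0 had an unadjusted limma-trend p under 0.05. The lowest p was that of Tlr4, at 160.2 ± 28.3 against 210.7 ± 32.7 normalized counts (SD, n = 4 each), with a log2 fold change of 0.40 and an adjusted limma-trend p of 0.383. Over all genes, 14.1% had an unadjusted limma-trend p under 0.05 (6.72% higher). Of the receptors and inhibitors of granule proteins, 3 of 9 (33.3%) did, all higher. They were Lrp1, an uptake receptor for lactoferrin (log2 fold change 0.41, adjusted limma-trend p 0.214), and the metalloproteinase inhibitors Timp2 (0.27, 0.285) and Timp3 (0.25, 0.313). Trf, for the transferrin related to lactoferrin, had a log2 fold change of 0.18 and an adjusted limma-trend p of 0.458.

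Relatives of the 7 genes by family were read next. Of the other S100 genes, 10 of 12 were tested and 7 had a negative log2 fold change, while 52.3% of all genes were above 0. An unadjusted limma-trend p under 0.05 was reached by 14.1% of all genes (7.34% lower). The difference of the S100 genes from these shares was not tested. The 2 S100 genes with such a p were lower in the libraries labelled heterozygote. These were S100a13 (1578 ± 562 against 913.8 ± 130 normalized counts; SD, n = 4 each) and S100a10 (1563 ± 392 against 1129 ± 56.6), with adjusted limma-trend p of 0.266 and 0.278. S100b, the glial S100 gene, had a log2 fold change of 0.05 and S100a1 of -0.42. Of the other matrix metalloproteinases, 12 of 14 were tested and 0 had an unadjusted limma-trend p under 0.05, with log2 fold changes of -0.05 for Mmp14, 0.03 for Mmp15, 0.16 for Mmp2 and 0.04 for Mmp24.

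Other blood and bone genes were set beside the neutrophil genes, library by library. S100a8, S100a9, Ngp and Cd177 summed to 82.8 to 175.2 normalized counts in wild type and to 909.1, 337.1, 4758.9 and 3613.5 in libraries 5 to 8. The proliferation genes (7 of 8 measured) summed to 175.1 to 302.9 in wild type and 168.3 to 876.4 in libraries 5 to 8. Mki67 was at 356.2 in library 7 and 130.3 in library 8, and at 28.8 to 62.3 in the other 6. Cdk1, Ccnb2, Birc5 and Rrm2 were also highest in libraries 7 and 8. Top2a was highest in library 7 (134.8), but library 8 (72.2) lay below wild-type library 1 (76.6). Cdc20 went another way, highest in wild-type library 2 (145.1) and at 99.9 and 60.9 in libraries 7 and 8. Ly6c2, of classical monocytes and marrow cells, was at 159.3 and 53.1 in libraries 7 and 8 and at 7.5 to 31.1 in the other 6. The monocyte and macrophage list as a whole (15 of 15 measured) did not separate the groups, at 4803 to 7217 and 4563 to 6304. In that list 2 genes had an unadjusted limma-trend p under 0.05, Tmem119 higher (the groups overlapped) and P2ry12 lower (no overlap). That is 13.3%, close to the 14.1% of all genes.

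The erythroid genes (8 of 12 measured) summed to 11891 to 36296 normalized counts in wild type and 9907 to 30704 in libraries 5 to 8, and were highest in wild-type library 1, where the 4 neutrophil genes summed to 175.2. Within that list, the red cell membrane gene Slc4a1 was at 547.5 in library 7, against 6.1 to 63.8 in the others. Of the B cell genes (3 of 11 measured, sums 1487 to 1679 against 1596 to 2077), Cd79a was at 9.1 to 24.2 in wild type and 26.1 to 59.1 in libraries 5 to 8, with no overlap and an adjusted limma-trend p of 0.299. The osteoblast and osteocyte genes (12 of 12 measured) summed to 16251 to 39808 and 28471 to 49328, with all 12 log2 fold changes above 0 and 6 with an unadjusted limma-trend p under 0.05, against 52.3% and 14.1% of all genes. The megakaryocyte and platelet genes (3 of 6 measured) summed to 238.3 to 594.3 and 215.9 to 479.4. In these lists 0 measured genes were at 0 in any library, and the eosinophil, basophil and mast cell genes were not analysed here. The part of marrow, blood or bone in the neutrophil values was not tested.

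**Figure D4:**
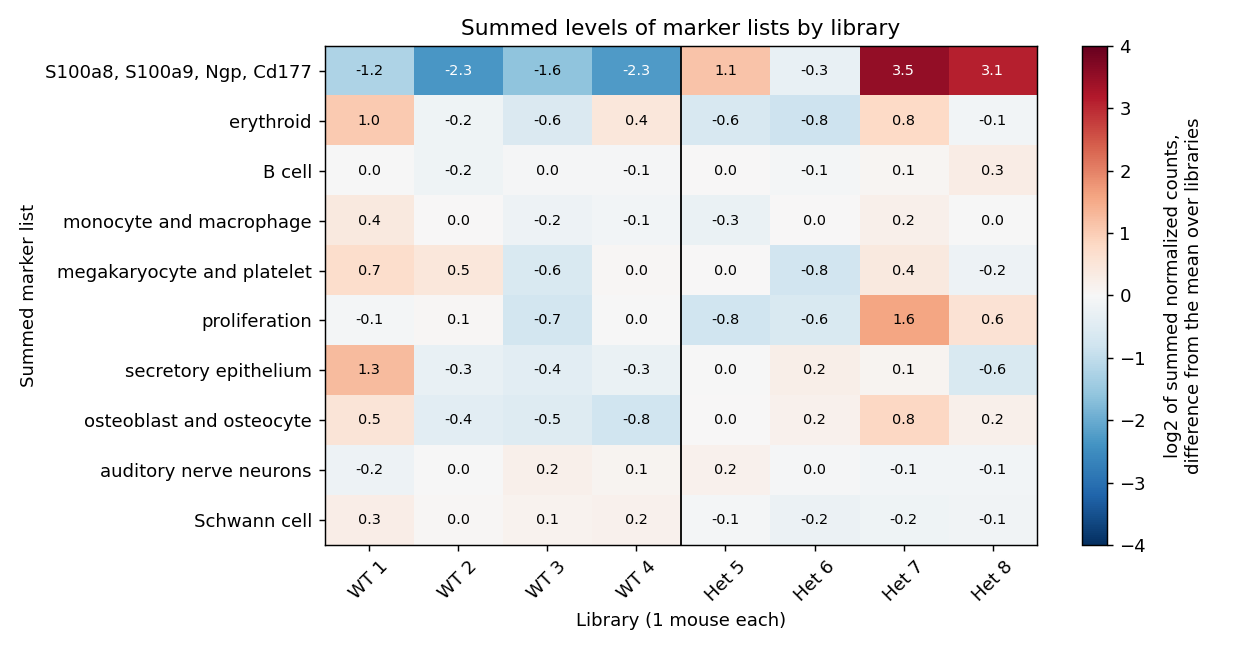
Summed normalized counts of S100a8, S100a9, Ngp and Cd177 and of each marker list in each library, as log2 differences from the mean over the 8 libraries. The neutrophil sum reaches 3.52 and 3.12 in libraries 7 and 8, the proliferation sum is highest in library 7 (1.59), and the erythroid and secretory epithelium sums are highest in wild-type library 1 (1.04 and 1.28), the latter through Bpifa1 alone.

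The genes whose library pattern was most like that of the 7 were ranked by Pearson's r with the mean of their standardized log2 values, over 8 libraries and 14901 other genes, as a description with no test. The 9 highest were Col11a1 (0.974), a fibrillar collagen chain, Ankrd6 (0.963), Scmh1 (0.955), Smpd3 (0.940), Igsf6 (0.937), Nfix (0.937), Fermt3 (0.937), F630028O10Rik (0.934) and Pxn (0.930). Fermt3, for the kindlin of blood cells, had 58.7 to 106.4 normalized counts in wild type and 108.6, 99.3, 194.1 and 140.6 in libraries 5 to 8. Chil3 was at rank 23 with 0.903. The points share the difference between groups that chose the 7 genes. With deviations from the group means in its place, the 10 highest were Lin7c (0.969), Phf10 (0.969), Lipc (0.967), Fanci (0.966), Galnt15 (0.964), Itgam (0.964), Pdgfd (0.959), Star (0.954), Celf5 (0.951) and Gm32856 (0.945). No gene was among the 10 highest by both measures, and Itgam was at rank 595 over the 8 libraries.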

How the data were processed

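Total RNA of each mouse (50 ng) went into poly(A)-selected directional libraries, and a minimum RNA integrity number of 7 was required, per the labels' protocols. The values used are the authors' deposited signal, 1 column for each library, read here from its values as gene counts divided by a size factor and rounded to 1 decimal. Partek, STAR, DESeq2 and mm10 are named in the submitters' processing notes, with no role or order; the counting method, its use of strand and the annotation are not given in the sources used here. Per the file headers, the same table gives the authors' p-value with its FDR. Per the file headers it also gives a ratio, the log2 of that ratio and a signed fold change, taken as a score and unused.

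The value of 1 read was estimated per library as the step of which most values up to 1000 are whole multiples (tolerance 0.055). 89.0% to 92.0% were, under the 95% needed to treat them as reads, so no count model was used for the values reported, and limma-voom on the estimated reads was only an alternative. The labels name no molecular identifiers, so the 3-read limit covers counting error only. The 14870 genes that reached 10 normalized counts in 4 or more libraries were tested on log2(value + 1) with limma-trend over all 8 libraries, without covariates, Benjamini-Hochberg adjusted, at 0.05 (R 4.3.3, limma 3.58.1). Such fold changes understate changes of low genes. The fit was tested on simulated data. Nothing says that mice were littermates, and p-values measure the spread between these mice. All else was done in Python 3.11.15 (pandas 2.3.3, numpy 2.4.6) and drawn with matplotlib 3.10.9. Transcript length is that of the longest protein-coding GENCODE M21 transcript.

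The 7 genes and all lists were chosen with earlier results of these data known. Genes of a list were named if their unadjusted p was under 0.05 or their mean was among the 4 highest of the list; Ly96, Il1b and single marker genes were named with their values in view. The 10 genes most like the 7 were taken by Pearson's r among genes with a mean of at least 10. Some single genes that these rules cover are not reported here. Alternatives were pseudocounts of 0.1 and 10, other filters, quantile and upper-quartile normalization, limma-voom, low Xist as a covariate or left out, and each library left out in turn.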

Additional observations from a re-analysis of the deposited data

Results flagged for a closer look

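The 7 genes, the 12 list genes with an unadjusted p under 0.05 and Bpifa1 were checked in each group of 4 for 1 library far from the other 3. Of 40 groups, 5 stood out. The limit used lets about 1 in 20, or 2, stand out by chance if values are independent and normally distributed. These values were skewed counts, not logs, and groups shared libraries. The genes were also picked from these data, so the 5 cannot be judged against that number. In 4 of the 5 the library was wild-type library 1, which was high. Ltf had a gap ratio (the gap to the nearest library over the group's range) of 0.903, with 2176.4 normalized counts against 29.0 to 237.4. Lcn2 had a gap ratio of 0.862, with 203.8 against 17.3 to 43.1. Mmp9 had 0.966, with 170.0 against 26.6 to 31.5. Bpifa1 had 0.924, with 15361.7 against 293.5 to 1441.9. S100a8, S100a9, Ngp, Cd177 and Mmp8 did not stand out in that library by this limit. It was still the highest wild-type library for S100a8 (53.2), Ngp (68.8) and Mmp8 (16.9). The other wild-type libraries reached at most 30.2, 43.1 and 10.9 normalized counts in these genes. It was not the highest for S100a9 (48.0) or Cd177 (5.2). The remaining group was Bpifa1 in libraries 5 to 8, with library 8 low at 45.9 against 2917.6 to 3248.2, a gap ratio of 0.897.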

How the results depend on the processing

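No paired analysis was possible because replicate numbers 1 to 8 are not shared between the groups. The log2 fold change of each of the 7 genes kept its direction in all 15 alternatives run for it and moved by less than the spread between replicates. Their median ran from 2.14 (pseudocount of 10) to 3.45. That of Ltf ran from 1.04 without wild-type library 4 to 3.10 without wild-type library 1, and was 3.29 without the 2 libraries low in Xist. Of all genes, 12 had an adjusted limma-trend p under 0.05, 7 with quantile normalization, and 0 to 221 when single libraries were left out. It was 0 with library 2, 4 or 8 removed (by limma-trend, where the unadjusted p was under 0.05 for 1919, 1451 and 1180 genes), 6 with library 7 removed, 7 with library 5 removed and 221 with library 3 removed. The number of genes of the 9 lists past that threshold was 0 in 16 of 17 alternatives and 3 without wild-type library 3 (Gfi1 and the S100 family genes S100a1 and S100a13), a range of 0 to 3 over single libraries left out. At an unadjusted p under 0.05 it was 12, with 8 to 16 over single libraries left out (8 with library 4 or 8 removed) and 18 with both libraries low in Xist removed. Depth limits Mmp8 and Cd177 in wild type, at 2 to 13 and 4 to 10 estimated reads per library.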
